A study of Mus musculus with 6 samples.

Results

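Expression of 10 genes of the transforming growth factor beta (TGF-beta) pathway was measured by RNA sequencing in the entire aorta of mice given erythropoietin (EPO) or saline. The genes were taken by symbol: the ligand genes Tgfb1, Tgfb2 and Tgfb3, the receptor genes Tgfbr1, Tgfbr2 and Tgfbr3, the signal transducers Smad2, Smad3 and Smad7, and the corepressor Tgif1. All 10 were found once each among the 47643 genes of the count table, and all 10 passed the filter on low counts that left 16522 genes for testing. The rule that lists them uses symbols and no measured value, though it was written with earlier results of these data known. Every mouse of both groups was Apoe-/-, that is, without apolipoprotein E, a background in which plasma cholesterol is raised and atherosclerosis develops; no age or sex is stated in the labels, and no wild-type aorta was analysed. The EPO group received recombinant human EPO at 5000 IU per kg per day by intraperitoneal injection, the Vehicle group saline by the same route, both for 4 weeks. Each group had 3 libraries, and since the labels do not state that each came from a separate animal, a p-value here reflects how much these libraries vary, which may be technical. Total counts ran from 23278649 in Vehicle 1 to 38502430 in EPO 1.

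TGF-beta ligands are secreted as latent complexes held in the matrix. Once released, they bind the type II receptor encoded by Tgfbr2, which phosphorylates the type I receptor encoded by Tgfbr1; that kinase then phosphorylates Smad2 and Smad3, which enter the nucleus with Smad4 and act on target genes. The product of Tgfbr3, betaglycan, is a coreceptor without a kinase that presents ligand, above all the one encoded by Tgfb2, to the type II receptor. Smad7 is the inhibitory Smad and is itself switched on by the pathway, and Tgif1 is a homeodomain corepressor that binds Smads. In the aorta the pathway is known for the contractile state of smooth muscle cells and for matrix production, and inherited variants in its ligands, receptors and Smads cause aortic aneurysm in people.

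With EPO, 4 of the 10 genes rose and 1 fell. Smad3 rose 2-fold, from 31.7 ± 2.41 CPM to 63.4 ± 6.09 CPM (SD, n = 3 per group), Tgif1 rose 2.11-fold, Tgfb1 1.73-fold and Tgfbr2 1.63-fold, and Tgfbr3 was 1.52-fold lower. By role, 1 of 3 ligand genes, 1 of 3 receptor genes, 1 of 3 Smad genes and the corepressor gene were higher, and the coreceptor gene was lower. CPM are a library's counts scaled to a common total, here with the trimmed mean of M values (TMM), and a gene was called changed at an edgeR adjusted p under 0.05. Of all genes tested, 23.0% were called, 12.9% as higher and 10.1% as lower. The values of the groups did not overlap for 6 of the 10 genes, against 43.8% of all genes tested. The median log2 fold change of the 10 was 0.3, beside 0.0113 for all genes tested. In bulk tissue, fewer cells of a type and less RNA per cell cannot be told apart, which holds for every value given here.

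**Figure D1:**
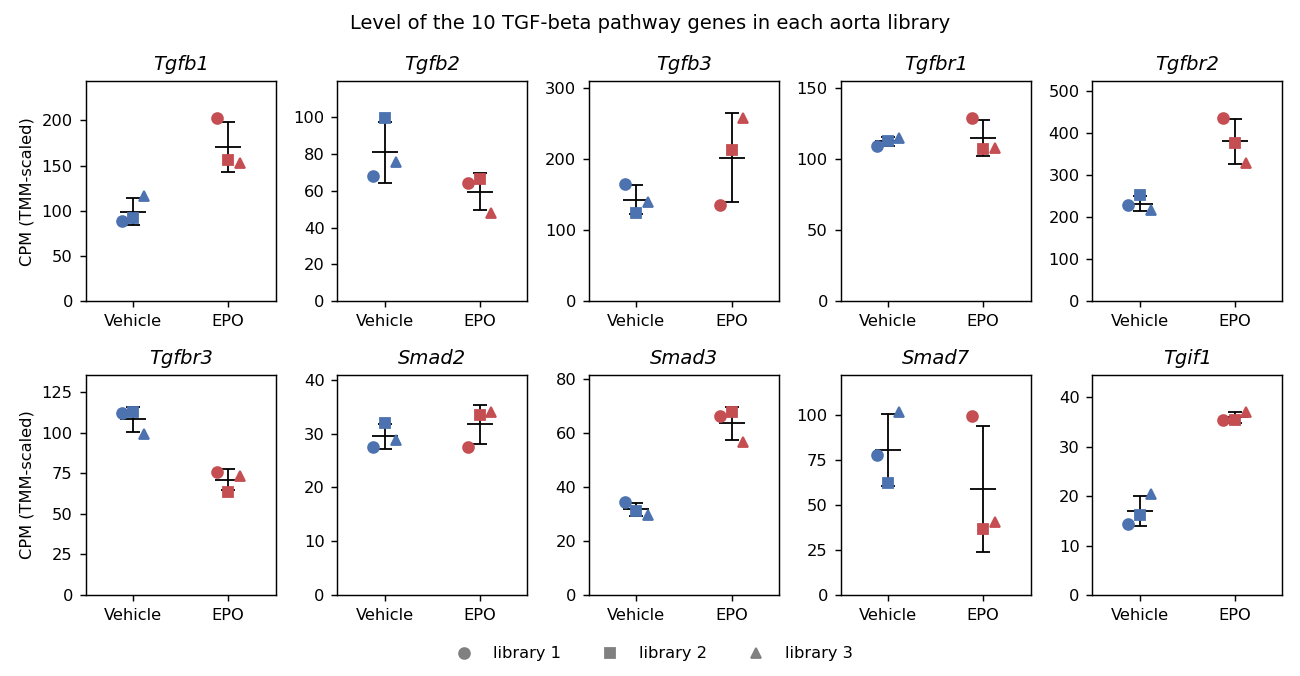
Level of each of the 10 genes in every library (TMM-scaled CPM, linear axes from 0); blue symbols are Vehicle, red symbols EPO, and the bar is the mean with its SD (n = 3). Smad3 and Tgif1 form separate groups (29.6 to 34.4 against 56.5 to 67.8 CPM, and 14.4 to 20.4 against 35.3 to 37.1 CPM), while Smad7 in EPO 1 (99.4 CPM) lies among the Vehicle libraries.

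The promoter windows of the genes that rose and have 1 annotated RefSeq start site, Tgfb1, Tgfbr2 and Smad3, are shown with that of Tgfb2. The values of Tgfb2, a ligand gene, lay lower with EPO, but it was not called (edgeR adjusted p = 0.133). RefSeq windows (GRCm38.p6) run from 250 bases before a start site to 50 bases after it. They lie at chr7:25686752-25687051 (plus strand) for Tgfb1, chr1:186705940-186706239 (minus) for Tgfb2, chr9:116175314-116175613 (minus) for Tgfbr2 and chr9:63757945-63758244 (minus) for Smad3. Each is written 5′ to 3′ along its gene. Capitals mark matches on either strand to CAGAC (the core of the Smad binding element), GGGCGG (the GC box), TATAAA (the TATA box) and TGACTCA (the AP-1 site); no matches overlap in these 4 windows.
Tgfb1: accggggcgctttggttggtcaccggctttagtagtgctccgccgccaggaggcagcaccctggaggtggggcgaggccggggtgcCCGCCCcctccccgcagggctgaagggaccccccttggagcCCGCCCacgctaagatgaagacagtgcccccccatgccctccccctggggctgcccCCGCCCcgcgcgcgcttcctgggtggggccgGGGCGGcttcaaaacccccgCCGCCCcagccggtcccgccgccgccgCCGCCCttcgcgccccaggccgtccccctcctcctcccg
Tgfb2: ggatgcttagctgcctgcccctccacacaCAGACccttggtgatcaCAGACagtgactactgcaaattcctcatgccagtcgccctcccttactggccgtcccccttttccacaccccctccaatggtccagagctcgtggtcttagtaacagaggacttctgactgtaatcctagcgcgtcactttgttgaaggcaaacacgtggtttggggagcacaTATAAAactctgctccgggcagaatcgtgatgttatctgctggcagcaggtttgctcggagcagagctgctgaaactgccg
Tgfbr2: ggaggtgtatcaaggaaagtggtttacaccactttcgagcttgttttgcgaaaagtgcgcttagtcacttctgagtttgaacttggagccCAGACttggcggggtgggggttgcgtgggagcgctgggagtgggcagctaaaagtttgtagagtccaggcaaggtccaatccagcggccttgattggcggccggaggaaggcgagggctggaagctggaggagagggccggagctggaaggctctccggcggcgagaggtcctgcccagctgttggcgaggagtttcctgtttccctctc
Smad3: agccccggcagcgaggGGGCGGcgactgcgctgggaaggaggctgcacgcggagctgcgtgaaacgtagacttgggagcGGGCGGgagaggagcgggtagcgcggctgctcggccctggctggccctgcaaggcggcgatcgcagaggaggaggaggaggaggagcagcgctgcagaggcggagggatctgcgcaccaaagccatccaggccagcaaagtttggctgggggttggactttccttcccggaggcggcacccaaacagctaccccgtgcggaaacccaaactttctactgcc
The Tgfb1 window held 6 GC boxes and the Smad3 window 2, whereas the Tgfb2 window held none of these but 2 CAGAC matches and a TATA box at position -31 from the start site. The Tgfbr2 window had 1 CAGAC match. No AP-1 match was found in any of the 4. Guanine and cytosine made up 77% of the bases for Tgfb1, 67.7% for Smad3, 59% for Tgfbr2 and 54.3% for Tgfb2, with a median of 52.7% over all 32851 RefSeq windows. In those, CAGAC occurs in 49.6%, GGGCGG in 35.7%, TATAAA in 13.6% and TGACTCA in 5.2%, so such matches describe the windows and name no bound site. The genes shown as risers therefore do not share a motif among these 4 that is in all 3 of their windows. Tgif1 has 5 annotated windows, of which 3 held a CAGAC match and 2 a GC box. Tgfbr1, which was not called (log2 fold change 0.03), had 2 GC boxes and 74.7% guanine and cytosine in its window at chr4:47352972-47353271. Its window at chr4:47385966-47386265 had 1 CAGAC match and 52%. GC boxes and a high share of guanine and cytosine were thus not confined to genes that rose. Windows of Smad2 and Smad7 were left out, and none was available for Tgfb3 and Tgfbr3.

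Among the ligand genes Tgfb1 rose. Tgfb1 (ENSMUSG00000002603, GRCm38 chromosome 7, 25687002 to 25705077), whose product is the ligand best known from platelets, macrophages and fibrosis, stood at 88.3, 92.2 and 116 CPM in Vehicle 1, 2 and 3 and at 203, 156 and 153 CPM in EPO 1, 2 and 3. Every EPO library lay above every Vehicle library. The log2 fold change was 0.79 (SE 0.17, 95% interval 0.4 to 1.18, edgeR adjusted p = 0.0163), and the call was lost without Vehicle 1 (0.68, adjusted p = 0.0814) or Vehicle 2 (0.72, adjusted p = 0.0704). The summed level of the macrophage marker list was 1920, 3540 and 3910 CPM in Vehicle 1, 2 and 3 and 9640, 4590 and 4170 CPM in EPO 1, 2 and 3. Vehicle 1, 2 and 3 and then EPO 3, 2 and 1 is the upward order of the libraries in both Tgfb1 and this sum. Of the 10 macrophage markers, however, 2 were called, both higher, and 8 were not called. Platelet and megakaryocyte markers summed to 36.5, 42.2 and 44.2 CPM in Vehicle and to 111, 132 and 238 CPM in EPO. Of the 6 tested, 2 were called, both higher, and 4 were not called. Most of each sum was Pf4, platelet factor 4, also made by some macrophages, at 84.3, 107 and 134 CPM in EPO 1, 2 and 3. It rose 3.96-fold (edgeR adjusted p = 0.00187), so the sum and Pf4 are largely the same observation. The part of either cell type in the Tgfb1 difference was not tested.

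Tgfb2 (ENSMUSG00000039239, chromosome 1, 186622792 to 186705989), a ligand of vascular and heart development, did not pass the threshold. Its level was 67.9, 99.7 and 75.4 CPM in Vehicle and 64.1, 66.6 and 48.1 CPM in EPO. All 3 EPO libraries lay below the lowest Vehicle library, EPO 2 only just. The log2 fold change was -0.44 (95% interval, not adjusted for the number of genes, -0.88 to -0.0019; edgeR adjusted p = 0.133). Tgfb3 (ENSMUSG00000021253, chromosome 12, 86056745 to 86079041), a ligand known from palate formation and wound repair, stood at 165, 124 and 140 CPM in Vehicle and at 135, 213 and 258 CPM in EPO. The groups overlapped because EPO 1 fell among the Vehicle libraries while EPO 2 and EPO 3 lay above them. Over all libraries its log2 fold change was 0.5 (95% interval -0.07 to 1.06, edgeR adjusted p = 0.178); without EPO 1 it was 0.71 (adjusted p = 0.0206). An interval of that width covers both no change and a 2-fold rise. Because the strand setting of the counting is not known, reads of Tgfb2 and Tgfb3 could include those of opposite-strand genes: Gm29491 shares 124 exon bases with Tgfb2 and had at most 3 counts in a library, Gm37804 shares 163 with Tgfb3 and had at most 2, and Gm48008, sharing 257 with Tgfb3, was not analysed here.

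The 3 receptor genes responded differently from one another. Tgfbr1 (ENSMUSG00000007613, chromosome 4, 47353222 to 47414931), the type I receptor kinase, stood at 109, 113 and 115 CPM in Vehicle and at 129, 107 and 108 CPM in EPO. EPO 1 was highest and EPO 2 and 3 were lowest, so the groups overlapped. The log2 fold change was 0.03, and its 95% interval of -0.26 to 0.31 is the narrowest of the genes that were not called (edgeR adjusted p = 0.897).

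Tgfbr2 (ENSMUSG00000032440, chromosome 9, 116084293 to 116175360), the type II receptor kinase that binds ligand first, rose from 229, 252 and 217 CPM in Vehicle to 437, 376 and 329 CPM in EPO. No library of one group reached the range of the other. It gave a log2 fold change of 0.71 (SE 0.15, 95% interval 0.35 to 1.06, edgeR adjusted p = 0.0169), lost without Vehicle 1 (0.67, adjusted p = 0.0814) or Vehicle 3 (0.66, adjusted p = 0.0633). Tgfbr3 (ENSMUSG00000029287, chromosome 5, 107106570 to 107289629), betaglycan, was the only one of the 10 called lower. It went from 112, 113 and 99.4 CPM in Vehicle to 75.9, 63.6 and 73.5 CPM in EPO, with a gap between the groups. The log2 fold change was -0.61 (SE 0.12, 95% interval -0.9 to -0.32, edgeR adjusted p = 0.0135; without Vehicle 1 -0.61, adjusted p = 0.0552).

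**Figure D2:**
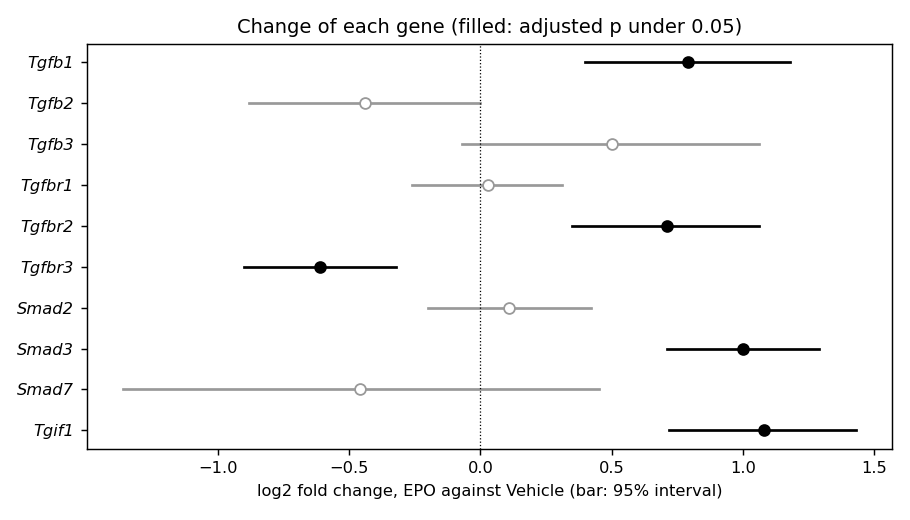
Log2 fold change of each gene, EPO against Vehicle, with its 95% interval (not adjusted for the number of genes); filled points are genes called at an edgeR adjusted p under 0.05. Tgif1 (1.08) and Smad3 (1) lie farthest from 0, and the interval of Smad7 (-1.36 to 0.45) is the widest.

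Of the Smad genes, Smad3 was the one called. Smad3 (ENSMUSG00000032402, chromosome 9, 63646767 to 63757994), which binds DNA itself and drives many matrix genes, stood at 34.4, 31.2 and 29.6 CPM in Vehicle and at 66, 67.8 and 56.5 CPM in EPO. The lowest EPO library was well above the highest Vehicle library. With a log2 fold change of 1 (SE 0.12, 95% interval 0.71 to 1.29, edgeR adjusted p = 0.00306) it had the smallest adjusted p of the 10, and it was called in all 16 alternatives (adjusted p from 0.00448 to 0.0176 with single libraries left out). Smad2 (ENSMUSG00000024563, chromosome 18, 76241580 to 76310963), the other Smad that TGF-beta receptors phosphorylate, stood at 27.5, 32 and 28.9 CPM in Vehicle and at 27.6, 33.5 and 34.1 CPM in EPO. EPO 1 fell among the Vehicle libraries and EPO 2 and EPO 3 lay above them, with a log2 fold change of 0.11 (95% interval -0.2 to 0.42, edgeR adjusted p = 0.597); the upper bound lies below the lower bound of Smad3.

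Smad7 (ENSMUSG00000025880, chromosome 18, 75367529 to 75395935), the inhibitory Smad and a direct target of the pathway, was at 77.9, 62.4 and 102 CPM in Vehicle and at 99.4, 36.5 and 40.8 CPM in EPO. EPO 1 stood with the Vehicle libraries, while EPO 2 and EPO 3 lay below all of them. The log2 fold change over all 6 libraries was -0.46 (95% interval -1.36 to 0.45, edgeR adjusted p = 0.435), and without EPO 1 it was -1.08 (adjusted p = 0.0176). Smad6, the inhibitory Smad of the bone morphogenetic protein (BMP) branch, had the same arrangement within the EPO group, at 42.7 CPM in EPO 1, 19.4 in EPO 2 and 24.5 in EPO 3. In the same libraries the macrophage markers summed to 9640, 4590 and 4170 CPM and the skeletal muscle markers to 1090, 2640 and 310 CPM; what sets EPO 1 apart in Smad7 was not tested.

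Tgif1 (ENSMUSG00000047407, chromosome 17, 70844205 to 70853546), the corepressor, went from 14.4, 16.1 and 20.4 CPM in Vehicle to 35.3, 35.3 and 37.1 CPM in EPO. The EPO libraries lay close together and all above Vehicle 3. Its log2 fold change of 1.08 (SE 0.15, 95% interval 0.72 to 1.43, edgeR adjusted p = 0.00413) was the largest of the 10, and it too was called in all 16 alternatives (adjusted p from 0.00792 to 0.0251 with single libraries left out). Its counts ran from 331, the lowest of the 10 genes in any library, to 1265.

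**Figure D3:**
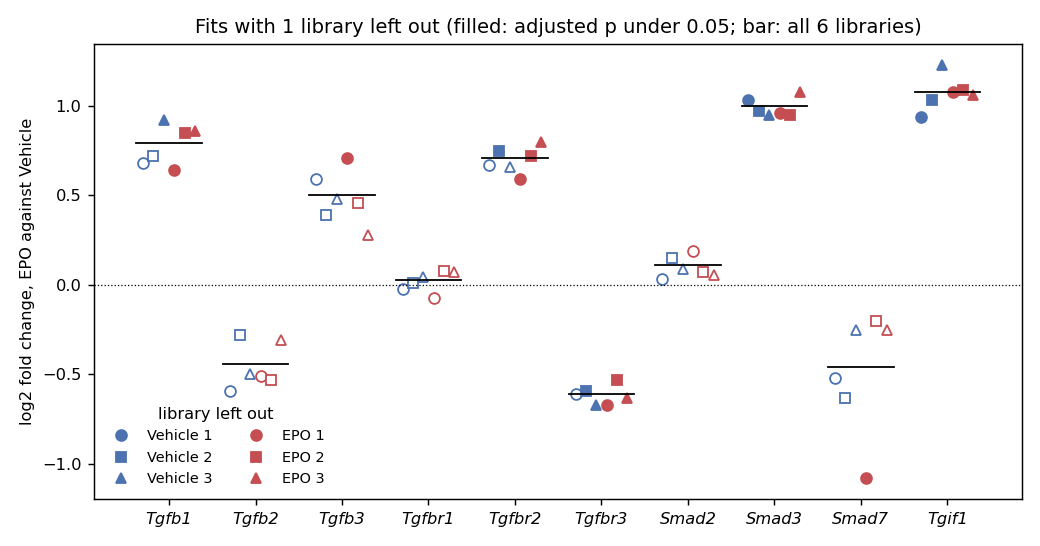
Log2 fold change of each gene in 6 fits that each leave out 1 library (blue, a Vehicle library; red, an EPO library); filled symbols are called at an adjusted p under 0.05, and the bar is the fit on all 6. Smad3 and Tgif1 were called in all 6 fits, and Smad7 only in the fit without EPO 1, at -1.08.

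The number of the 10 genes called depended on which libraries were kept. Without Vehicle 1, 2 were called (Smad3 and Tgif1), where the number called among all genes fell from 3804 to 1635. Without Vehicle 2 or Vehicle 3, 4 of the 10 were called, beside 2029 and 2624 of all genes. Without EPO 1 it was 7, the added ones being Smad7 and Tgfb3, beside 4281 of all genes. A fit without both EPO 1 and EPO 2, whose skeletal muscle marker sums were the highest, was added after seeing the data. It leaves EPO 3 alone against Vehicle, so the spread comes from the Vehicle libraries and EPO 3 is assumed to vary like them. In it Smad3 (log2 fold change 0.83) and Tgif1 (1.13) were called, among 1548 of all genes.

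Ratios between members of a pair, taken within each library from the counts, asked whether a pair had shifted its balance; library scaling and gene length cancel in the change of such a ratio. For 5 of the 8 ratios the groups did not overlap. The share over other gene pairs was not computed, and 43.8% of all single genes tested did not overlap. Each of the 5 is divided by Tgfb1, Tgfbr2 or Smad3, which were themselves called higher, so these ratios partly restate those rises. The log2 ratio of Tgfbr3 to Tgfbr2, coreceptor over type II receptor, was -1.03, -1.15 and -1.13 in Vehicle and -2.53, -2.56 and -2.16 in EPO, a 2.48-fold fall in the ratio. That of Tgfb2 to Tgfb1 was -0.38, 0.11 and -0.62 in Vehicle and -1.66, -1.23 and -1.67 in EPO, a 2.34-fold fall. Both ratios thus lay lower in every EPO library than in any Vehicle library.

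The ratio of Smad7 to Smad3, inhibitory over receptor-activated Smad, fell 2.99-fold, from 1.18, 1 and 1.79 to 0.59, -0.89 and -0.47 on the log2 scale, so that EPO 1 again stood nearest to Vehicle. Smad2 over Smad3 fell 1.86-fold (-0.32, 0.03 and -0.04 against -1.26, -1.02 and -0.73) and Tgfbr1 over Tgfbr2 1.6-fold (-1.07, -1.16 and -0.92 against -1.77, -1.81 and -1.61). For each of these 5 the two-sided exact permutation test gave p = 0.1, its lower limit with 3 libraries a group, and 0.16 after Benjamini-Hochberg adjustment over the 8 ratios, so none passed. The other 3 overlapped: Tgfb3 to Tgfb1 differed by -0.33 (exact permutation p = 0.7), Tgfb3 to Tgfb2 by 0.9 (p = 0.2, exact) and Tgif1 to Smad3 by 0.1 (p = 0.8, exact). The first and the last change sign when single libraries are left out.

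**Figure D4:**
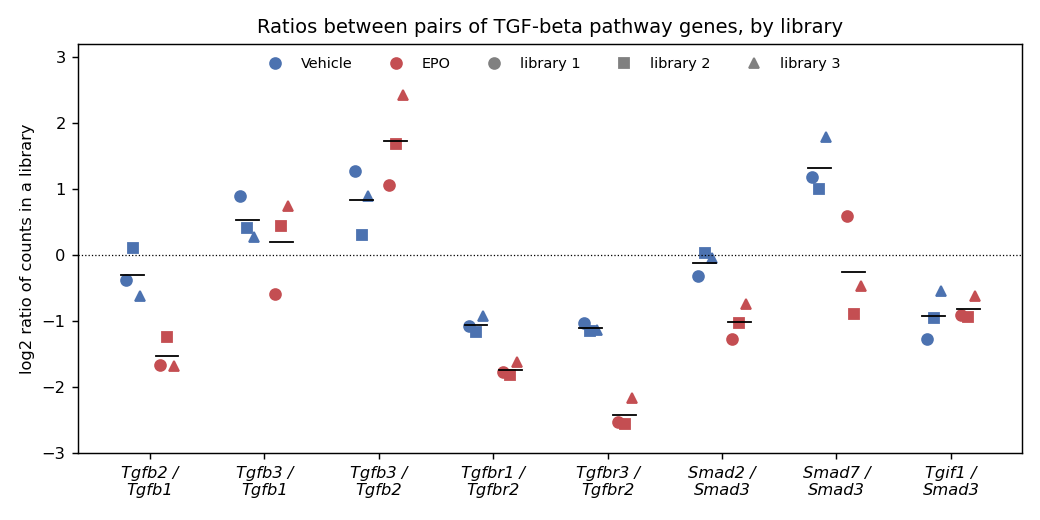
Log2 ratio of the counts of paired genes within each library (blue, Vehicle; red, EPO; bar, group mean), on a linear axis of log2 units. The Tgfbr3 to Tgfbr2 ratio lies between -1.15 and -1.03 in Vehicle and between -2.56 and -2.16 in EPO, with no overlap.

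Levels can be compared between genes only per length, for which CPM were divided by the annotated exon length in kilobases. In Vehicle, Tgfb3 had the highest level at 42.3 ± 6.09 CPM per kb (SD, n = 3), followed by Tgfbr2 at 28.5 ± 2.16. Tgfb1 (19.6 ± 2.94), Smad7 (17.9 ± 4.45), Tgfbr1 (17.2 ± 0.459), Tgfbr3 (16.5 ± 1.17) and Tgfb2 (14 ± 2.87) came next, each overlapping its neighbour. Smad3 (5.73 ± 0.435), Smad2 (3.35 ± 0.261) and Tgif1 (3.02 ± 0.549) were lowest, the last 2 of them overlapping. In EPO the order began with the same 3 genes, Tgfb3 (59.7 ± 18.4), Tgfbr2 (46.5 ± 6.63) and Tgfb1 (33.9 ± 5.51), whose neighbours overlapped. Tgfbr1 (17.5 ± 1.87) followed, Smad3 (11.4 ± 1.1) lay between Smad7 (13 ± 7.78) and Tgfbr3 (10.8 ± 0.995), overlapping both, and Smad2 (3.61 ± 0.411) came last, below Tgif1 (6.38 ± 0.187).

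Within the 3 receptor genes, per length, Tgfbr2 made up 45.3%, 47.1% and 44.8% of their sum in Vehicle and 63%, 63.7% and 59.2% in EPO. Tgfbr3 made up 27.7%, 26.5% and 25.6% and then 13.7%, 13.5% and 16.5%. The makeup of the receptor genes was close within each group and apart between them. These shares restate the rise of Tgfbr2 and the fall of Tgfbr3, and 43.8% of all single genes tested did not overlap between the groups. Among the ligand genes Tgfb3 held the largest share in all libraries but EPO 1, at 55.6% ± 6.14 in Vehicle and 56.6% ± 11.6 in EPO, while in EPO 1 Tgfb1 held 44.1% and Tgfb3 43.8%. Tgfb2 held 15%, 23.9% and 16.8% in Vehicle and 12.2%, 10.9% and 7.24% in EPO.

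Genes that act before the receptors are described next. Of 10 tested genes for ligand latency and activation (of 11 listed), 3 rose and 1 fell, a share of calls to be read against 23.0% of all genes, with a median log2 fold change of 0.32. Thbs1, thrombospondin, which can activate latent TGF-beta, rose 6.6-fold, from 108, 301 and 348 CPM in Vehicle to 1110, 2710 and 1170 CPM in EPO (edgeR adjusted p = 0.0119). Nrros, which tethers latent ligand on myeloid cells, rose 2.13-fold (32.7 ± 5.42 to 69.9 ± 17.3 CPM, edgeR adjusted p = 0.0106), and Furin, a protease that cuts the ligand precursor, 1.36-fold (189 ± 11.3 to 257 ± 15.4 CPM, edgeR adjusted p = 0.038). The call of Furin was lost without any 1 of the Vehicle libraries, EPO 2 or EPO 3 (adjusted p from 0.0853 to 0.153), with library size only (0.0657) and with no filter (0.0766), at log2 fold changes of 0.38 to 0.45. Ltbp1, which binds latent ligand to the matrix, fell 2.09-fold, from 780, 580 and 600 CPM to 258, 318 and 363 CPM (edgeR adjusted p = 0.00912). With EPO 3 as the lone EPO library, the log2 fold change of Thbs1 was 2.22 in place of 2.72 (adjusted p = 0.0769) and that of Ltbp1 -0.85 in place of -1.06 (adjusted p = 0.0914). Smooth muscle markers were lower in the same libraries as Ltbp1, with summed levels of 12500 to 16200 CPM in Vehicle and 3030 to 5460 CPM in EPO; their part in its fall was not tested.

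Of 8 coreceptors and ligand-binding proteins, 1 rose and 1 fell (median log2 fold change 0), a share near the 23.0% of all genes. Cd109, a coreceptor that promotes receptor breakdown, rose 1.64-fold (50.5 ± 3.14 to 82.9 ± 17 CPM, edgeR adjusted p = 0.022), and Vasn, a membrane protein of vascular smooth muscle that traps ligand, fell 1.57-fold (193 ± 18.4 to 123 ± 13 CPM, edgeR adjusted p = 0.0165). Neither call held in every fit with 1 library left out. Cd109 lost its call without Vehicle 1, 2 or 3 or EPO 2 (edgeR adjusted p from 0.0515 to 0.095). Its log2 fold change was 0.59 to 0.76 in these fits, beside 0.72 with all libraries. Vasn lost its call without Vehicle 1 or 3 or EPO 2 (0.0542 to 0.0621), at -0.66 to -0.56 beside -0.65. Fmod, fibromodulin, a small proteoglycan that binds the ligands, stood at 206 ± 39.7 CPM in Vehicle and at 316 ± 49.5 CPM in EPO (edgeR adjusted p = 0.0559; DESeq2 adjusted p = 0.0248).

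Of 18 other Smads and Smad regulators, 1 rose and 2 fell (median log2 fold change 0.09), a share below the 23.0% of all genes. Smad9, which transduces BMP signals, fell 4.63-fold, from 13.3, 11.8 and 15.9 CPM to 1.73, 3.33 and 3.82 CPM (edgeR adjusted p = 0.00402), the largest change among the Smad genes tested. Smad5, another BMP transducer, rose 1.44-fold (43.9 ± 2.36 to 63.1 ± 1.77 CPM, edgeR adjusted p = 0.0124; 0.0756 without Vehicle 1 and 0.0532 without Vehicle 3). Smad6 fell 2.08-fold (60.3 ± 13.3 to 28.9 ± 12.3 CPM, edgeR adjusted p = 0.044), a call lost without any 1 of the Vehicle libraries, EPO 2 or EPO 3 (0.0528 to 0.126) and held without EPO 1 (0.00773). Skil and Pmepa1, feedback inhibitors that the pathway switches on, were named after their values were seen: they had log2 fold changes of 0.13 (95% interval -0.12 to 0.38) and 0.03 (-0.35 to 0.42), at adjusted p of 0.407 and 0.907 in edgeR.

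Genes known as targets of the pathway, in lists chosen with earlier results of these data known, went in opposite directions by kind. Of 13 matrix and secreted targets, 10 rose, to be read against the 12.9% of all genes tested that rose. Over the 13, the median log2 fold change was 1.92. Col1a1, a chain of type I collagen, rose 7.47-fold (3440 ± 553 to 25700 ± 3370 CPM, edgeR adjusted p = 0.00167), Adam12, a membrane metalloprotease, 6.2-fold (12.3 ± 2.18 to 76.2 ± 23.9 CPM, edgeR adjusted p = 0.00218) and Lox, which crosslinks collagen and elastin, 3.79-fold (215 ± 8.38 to 813 ± 213 CPM, edgeR adjusted p = 0.00262). Among those that did not pass were Ccn2 and Tgfbi, both often used as readouts of TGF-beta signalling. Ccn2, connective tissue growth factor, had a log2 fold change of -0.23 (-0.88 to 0.41, edgeR adjusted p = 0.58) and Tgfbi of 0.12 (-0.29 to 0.53, edgeR adjusted p = 0.65). Thbs1, Furin, Lox, Ccn2 and, among the contractile genes, Smtn also share exon bases with genes on the opposite strand, so their counts are uncertain to that extent.

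Contractile targets fell, 8 of 8, beside 10.1% of all genes tested called lower, with a median log2 fold change of -1.49. Cnn1, calponin, fell 2.89-fold (990 ± 149 to 343 ± 41.4 CPM, edgeR adjusted p = 0.00277), Myh11, smooth muscle myosin, 3.83-fold (5240 ± 921 to 1370 ± 449 CPM, edgeR adjusted p = 0.00518) and Smtn, smoothelin, 2.73-fold (968 ± 141 to 354 ± 90.1 CPM, edgeR adjusted p = 0.00559). Without Vehicle 1, 5 of the 8 were called. These genes are also markers of smooth muscle cells, and the lists share Cnn1, Myh11, Smtn and Lmod1, so a fall in the targets and a smaller share of smooth muscle RNA cannot be told apart.

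**Figure D5:**
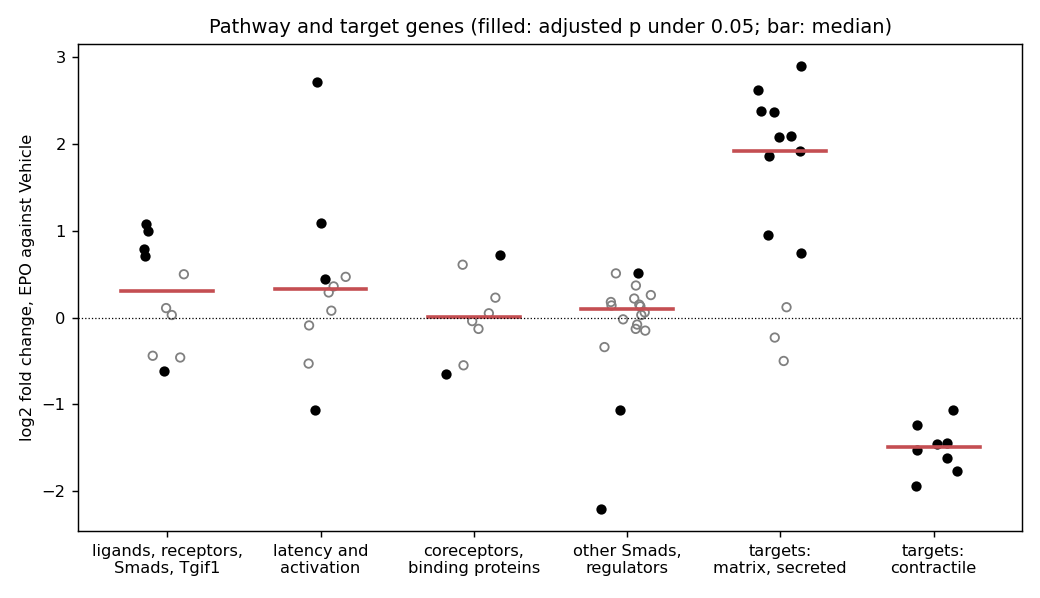
Log2 fold change of each tested gene, EPO against Vehicle, for the 10 genes and for the 5 lists of pathway and target genes; filled points were called at an edgeR adjusted p under 0.05 and the red bar is the median. Matrix targets lie high (median 1.92) and contractile targets low (-1.49), while the medians of the 3 lists of pathway components lie between 0 and 0.32.

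Markers of the cell types that an aorta can hold are given beside the 12.9% of all genes called higher and the 10.1% called lower, with no test of a list against these shares. Smooth muscle markers, which define the wall of an aorta, summed to 12500 CPM or more in each Vehicle library; of 10, 9 were lower in EPO. Of 10 fibroblast markers 3 were higher and 3 lower (summed 2630 to 2890 CPM in Vehicle, 3360 to 3950 CPM in EPO), of 10 endothelial markers 3 were higher and 1 lower (1480 to 1630 and 1180 to 1780 CPM), and of 10 macrophage markers 2 were higher (1920 to 3910 and 4170 to 9640 CPM). Higher members numbered 2 of 6 for platelets (36.5 to 44.2 and 111 to 238 CPM) and 2 of 8 for T cells (10.3 to 22.2 and 21 to 32.6 CPM). Of these, Pf4 kept its call with any single library left out (edgeR adjusted p from 0.00177 to 0.0133). Ppbp (0.0107 to 0.0911) and Trac (0.0157 to 0.109) lost theirs in some such fits. Foxp3, at a mean of 0.206 CPM in Vehicle and 0.572 CPM in EPO, lost its call in all of them (0.0715 to 0.144). All 10 markers of dividing cells (25.5 to 46.8 and 201 to 263 CPM) and all 9 tested of skeletal muscle (6.92 to 14.9 and 310 to 2640 CPM) were higher, and 5 of 8 white adipocyte markers were lower (3180 to 7360 and 2050 to 2690 CPM). No marker in these lists was at 0 in all libraries. With haemoglobin, mitochondrial and skeletal muscle genes left out of the totals, the same 5 of the 10 pathway genes were called, Smad3 at a log2 fold change of 1.01 and Tgif1 at 1.08. That fit leaves the counts of the 10 genes as they were, so it cannot show what part any cell type had. The part of each cell type was not tested.

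For each ligand gene the pair of genes with the most similar log2 CPM over the 6 libraries was taken from 13423 genes with a mean over 1 CPM. For Tgfb1 these were Ptpn1 (Pearson r = 0.998) and Cd63 (0.996), for Tgfb2 Sgms1 (0.982) and Fcho2 (0.98), and for Tgfb3 Tceal9 (0.992) and Naif1 (0.987). The 6 points are of 2 groups and share library and depth, and with so many genes compared such values describe these libraries only.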

How the data were processed

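RNA from the entire aorta was sequenced in 6 libraries, 3 per group. Per the labels' protocols the kit was NEBNext Ultra RNA, read as paired ends on a HiSeq; the submitters' processing notes name CASAVA 1.8, TopHat2 2.0.6 and mm10. Which tool counted the reads, on which strand and with which annotation is not given in the sources used here. Values deposited by the authors are raw counts per Ensembl gene, and columns named Con were read as Vehicle. Symbols, GRCm38 positions and exon lengths came from GENCODE M21 for 47224 of 47643 IDs; promoters came from RefSeq.

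EPO was compared with Vehicle over all genes in R 4.3.3 with edgeR 4.0.16 (filterByExpr, TMM, quasi-likelihood test, group as the only term, Benjamini-Hochberg over 16522 genes, which hold 99.9% of the counts). The common biological coefficient of variation was 0.244. SE is the log2 fold change divided by the root of the F statistic. Intervals of single fits are not adjusted for multiple tests. Ratios were tested by exact permutation. The edgeR step was also run on simulated counts, with means and dispersion taken from its fit to these data. The permutation step was checked on made-up values only.

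The members, the gene lists and the tests were chosen with earlier results of these data known. Lists were described by counts and medians. The text names all 10 members; from each list, at most, the 3 genes of smallest p, the one of smallest p in each direction and the genes that complete a count of 5 or fewer; Skil and Pmepa1, outside this rule and chosen after their values were seen; and the 2 genes most like each ligand gene. Alternatives were other scalings, filters, DESeq2 1.42.0, limma-voom (limma 3.58.1), a replicate block, genes of blood, mitochondria and skeletal muscle left out, and each library left out; added after seeing the data were a fit without EPO 1 and EPO 2 and libraries thinned to the smallest total. The values of 1 gene of the target lists are not reported here.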

Additional observations from a re-analysis of the deposited data

How the results depend on the processing

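Across all 6 alternatives of scaling, filter and test, the replicate block, the fit without blood, mitochondrial and skeletal muscle genes, and thinning, the same 5 of the 10 genes were called. Of all genes, 1635 to 4281 were called with single libraries left out and 1548 without EPO 1 and EPO 2; of the 10, 2 to 7 and 2. The fit without EPO 1 and EPO 2 holds 1 EPO library, assumed to vary like the Vehicle libraries. Latency and activation genes called numbered 7 in DESeq2, 2 without EPO 1 and EPO 2, and 3 with library size only, the replicate block and without Vehicle 1, 2 or 3 or EPO 2; Furin lost its call in each of the last 6 (adjusted p = 0.082 with the block). Coreceptors and binding proteins numbered 4 in DESeq2, 0 to 2 with single libraries left out and 0 without EPO 1 and EPO 2; where edgeR called 0, between 2 and 4 of them had an unadjusted p under 0.05. Other Smads and regulators numbered 1 to 6 with single libraries left out, and contractile targets 5 to 8. Matrix and secreted targets, 10 with all libraries, numbered 7 to 9 with single libraries left out, 8 with the replicate block and 9 with library size only. The log2 fold change of Tgfbr1 changed sign with library size only (-0.000802), without single libraries (-0.0745 to 0.076) and without EPO 1 and EPO 2 (-0.056), at adjusted p of 0.555 or more. With single libraries left out the log2 ratio of Tgfb3 to Tgfb1 differed by -0.61 to 0.06 and that of Tgif1 to Smad3 by -0.07 to 0.29. Ccn2 changed sign without single libraries (-0.39 to 0.00238) and without EPO 1 and EPO 2 (0.00857), and Pmepa1 without single libraries (-0.0782 to 0.13). The causes were not tested. The deviations of same-numbered Vehicle and EPO libraries from their group means had correlations of -0.0088, -0.0098 and 0.127. Those of libraries with different numbers ran from -0.101 to 0.12. With 3 libraries a group this cannot decide whether the numbers pair them. With the replicate block 2884 genes were called, 5 of the 10 among them, and 1 of the coreceptors and binding proteins. Counts were 331 or more per library for each of the 10 genes, so depth limits them less than the spread of 3 libraries.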
